A study of Rattus norvegicus with 6 samples.

Results

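Phase II conjugation genes encode the liver enzymes that attach a polar group to drugs, hormones, bilirubin and bile acids so that these can leave in bile or urine. Of the 32158 loci with a gene symbol, 38 genes were taken by symbol alone, on 40 rows, without regard to their values. They comprised 5 UDP-glucuronosyltransferases (UGT; symbols starting with Ugt1, Ugt2 or Ugt3 and the letter a or b), 10 sulfotransferases (SULT) and 23 glutathione S-transferases (GST), the last counting both the soluble classes and the microsomal enzymes (Mgst). Where a symbol stood on several rows, the row with the highest mean was used, and a merged row for Gsto1 and Gsto2 counted as 1 gene.

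Male obesity-prone Sprague Dawley (op-SD) rats of 160 to 190 g at the start ate a control diet (CD) or a Western diet (WD) for 2 weeks. All 6 libraries therefore came from the same strain and sex and from the left lobe of the liver. The rats were fasted overnight and then refed their own diet for 1 h. Effects of the 2 weeks of diet and of this last meal cannot be told apart. Total RNA was measured for each diet, as were a light fraction of a sucrose gradient, holding mRNAs bound to 3 or fewer ribosomes, and a heavy fraction, holding mRNAs bound to 4 or more. RNA of 3 rats was pooled before each library was made, so each diet and fraction is 1 library, no value has a replicate, and no test between diets could be made. The op-SD rat is a line prone to diet-induced obesity, and whole liver holds several cell types, so that a change in the number of cells of a type and a change in RNA per cell cannot be told apart.

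UGT enzymes sit in the membrane of the endoplasmic reticulum and use UDP-glucuronic acid, whereas SULT enzymes are cytosolic and use the sulfate donor PAPS. GST enzymes join glutathione to electrophiles, and several also reduce lipid peroxides. Many of these genes are targets of nuclear receptors such as the pregnane X receptor (Nr1i2) and the constitutive androstane receptor (Nr1i3), and GST genes in particular of the stress regulator NRF2 (Nfe2l2). The products are pumped out of the hepatocyte, above all by Abcc2 in the canalicular membrane.

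The promoters of the most abundant member of each family and of Gstm1 are shown because the levels below are led by these genes. They are the 150 bases before the annotated start of transcription in RefSeq on the rat assembly GRCr8, in the direction of the gene, and capitals mark a TATA box (TATAAA), which was found only in Gstm1 among these 4. The deposited values were made on the older assembly Rnor_6.0, and coordinates of the 2 builds were not mixed.
Ugt2b15 (chr14:21122716-21122865, + strand): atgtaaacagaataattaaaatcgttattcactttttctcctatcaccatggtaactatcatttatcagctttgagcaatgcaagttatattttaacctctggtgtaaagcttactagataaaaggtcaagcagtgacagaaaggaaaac
Sult1a1 (chr1:190706113-190706262, - strand): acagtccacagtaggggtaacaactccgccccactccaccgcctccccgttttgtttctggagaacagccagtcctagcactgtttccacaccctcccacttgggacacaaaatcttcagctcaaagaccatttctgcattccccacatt
Mgst1 (chr4:172760780-172760929, + strand): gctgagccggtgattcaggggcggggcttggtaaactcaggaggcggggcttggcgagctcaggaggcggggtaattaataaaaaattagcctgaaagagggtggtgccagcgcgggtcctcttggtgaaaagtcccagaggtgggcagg
Gstm1 (chr2:198343384-198343533, - strand): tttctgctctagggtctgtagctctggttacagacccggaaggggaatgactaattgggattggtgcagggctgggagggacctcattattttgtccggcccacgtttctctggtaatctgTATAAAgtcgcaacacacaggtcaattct

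Of 39 member symbols, 32 had a RefSeq promoter, and 3 motifs were searched on both strands in the 250 bases before the start. The core of the antioxidant response element, TGACNNNGC, to which NRF2 binds, was present in Gsta3, Gstm5, Gstm7, Gstp1 and Gstz1, which is 15.6% of the members against 10.1% of all 33469 promoters. TATAAA was present in Gsta1, Gstm1, Gstm3, Gstm5, Sult1c2a, Sult1d1 and Sult2a1 (21.9% against 12.9%). GTTAAT, a motif of the hepatocyte factor HNF1, was present in Gsta3 alone (3.13% against 6.45%). A match describes letters only, and no match says nothing about a factor.

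Levels are given in FPKM, the fragments of a transcript scaled by its length and by the size of the library, so that genes of a library can be compared. The deposited values were also scaled between libraries by the authors' software. The 38 genes together held 6256 FPKM in CD and 6934 FPKM in WD total RNA, or 0.9502% and 1.13% of the FPKM of all loci with a symbol. GST genes held 66.3% of this sum in CD and 67.3% in WD, UGT genes 21.7% and 21.9%, and SULT genes 12.1% and 10.8%. The order of these sums was thus GST, UGT, SULT in both diets, and the same in the light and in the heavy fraction of each diet. The GST sum is over 23 genes and the UGT sum over 5, and by the median of the compared members the order was UGT, SULT, GST in all 6 libraries, with 173, 58.2 and 26.1 FPKM in CD and 232, 45.9 and 26.0 FPKM in WD total RNA. Whether neighbors in this order differ beyond the spread of rats could not be tested. The families were also covered unevenly. Of the protein-coding symbols that RefSeq lists on GRCr8, 4 of 20 UGT, 10 of 16 SULT and 24 of 31 GST symbols were among the members. The sums, shares and medians hold for these members only, not for the whole families.

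A gene entered the comparisons when its 6 values averaged at least 1 FPKM. This held for 29 members, namely 5 UGT, 6 SULT and 18 GST genes. The other 9 were Sult1d1, Sult4a1, Sult5a1, Sult6b1, Gsta2, Gstm3, Gstm5, Gstm6 and Gstt4. Of these, Sult4a1, Sult6b1, Gstm3 and Gstt4 were listed at 0 in all 6 libraries, and the highest mean among the other 5 was 0.544 FPKM, in Gsta2. At the other end, 11 members had a mean of at least 100 FPKM. The microsomal Mgst1 ranked 42 among all symbols in CD and 36 in WD total RNA, followed among the members by Gstm1 (61 and 51), Ugt2b15 (79 and 71) and Gstm7 (114 and 98).

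**Figure D1:**
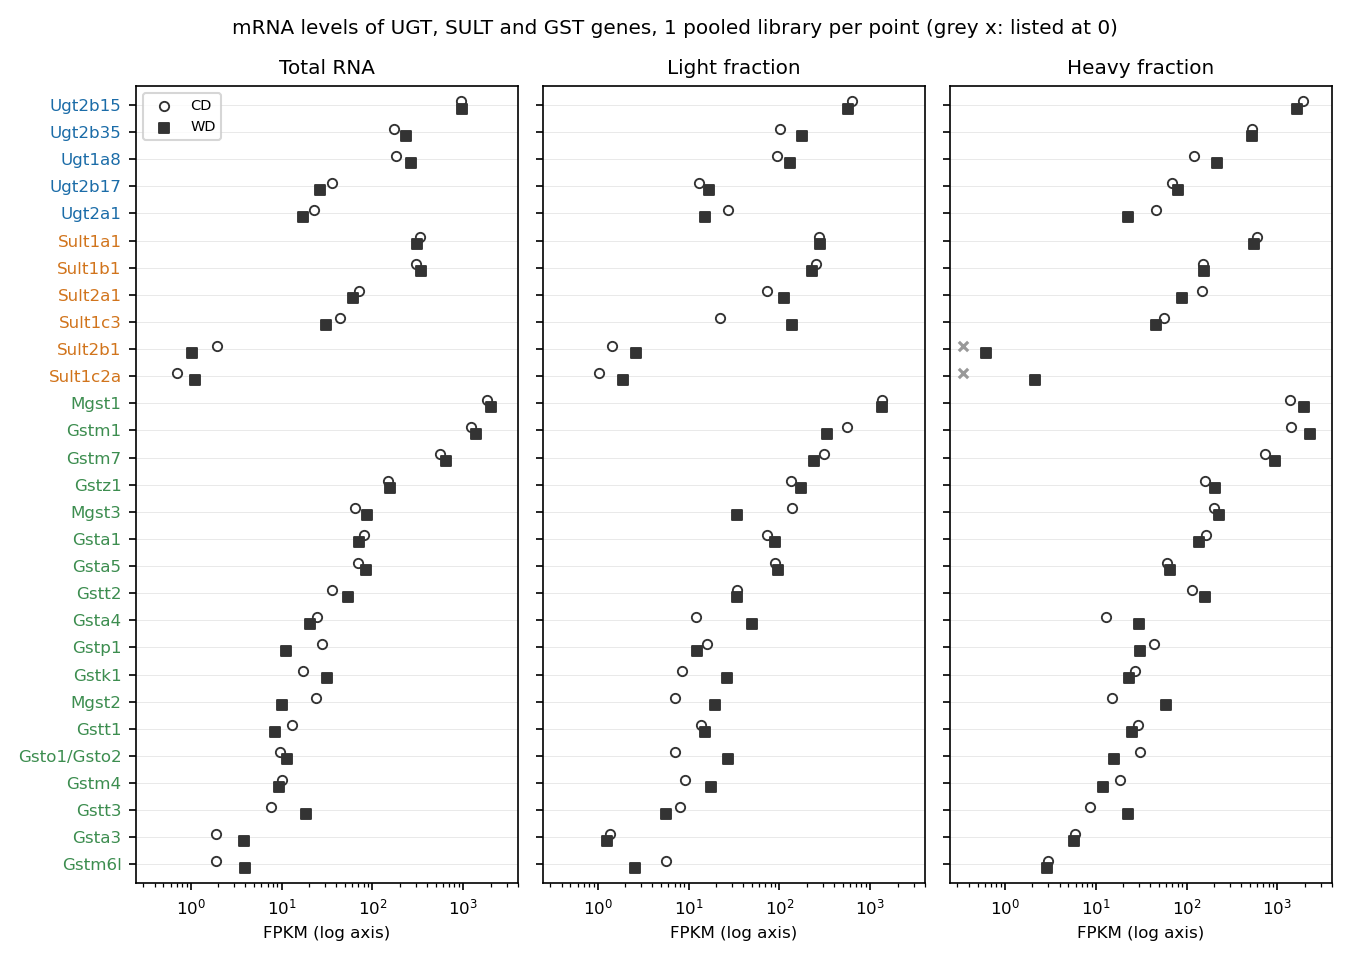
FPKM of each of the 29 members with a mean of at least 1 FPKM, on a log axis, in total RNA, the light fraction and the heavy fraction. Each circle (CD) and square (WD) is 1 pooled library, there are no error bars because there are no replicates, and label colors mark UGT (blue), SULT (orange) and GST (green). Mgst1, Gstm1 and Ugt2b15 lie at the right in every panel, and Sult2b1 and Sult1c2a are listed at 0 in the CD heavy fraction.

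Among the UGT genes, Ugt2b15, an enzyme for androgens and other steroids and phenols, was the most abundant, with 944 FPKM in CD and 976 FPKM in WD total RNA. In the light fraction it had 625 FPKM in CD and 564 FPKM in WD, and in the heavy fraction 1934 and 1649 FPKM. It alone made up 69.6% of the UGT sum in CD total RNA and 64.4% in WD. Its related gene Ugt2b35 had 173 and 232 FPKM in total RNA (CD and WD), 101 and 176 FPKM in the light fraction and 531 and 526 FPKM in the heavy fraction. The diets thus differed in total RNA and the light fraction but hardly in the heavy fraction.

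Ugt1a8 was the only gene of the UGT1A group, which conjugates bilirubin, phenols and thyroid hormone. It had 179.9 and 263 FPKM in total RNA, 93.1 and 131 FPKM in the light fraction and 120 and 215 FPKM in the heavy fraction. WD was higher in all 3 pairs of libraries, by 1.46, 1.41 and 1.79 times. UGT1A genes are spliced from alternative leading exons to shared later exons, so reads of the shared exons cannot be assigned to Ugt1a8 alone. RefSeq on GRCr8 lists 8 protein-coding UGT1A symbols, of which the other 7 were not analysed here.

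Ugt2b17 and Ugt2a1 were the lowest UGT genes. Ugt2b17, another steroid-conjugating enzyme, had 35.7 and 26.6 FPKM in total RNA, 13.0 and 16.8 FPKM in the light and 69.4 and 80.0 FPKM in the heavy fraction. It was lower in WD total RNA and higher in both WD fractions. Ugt2a1, best known from the olfactory epithelium, had 22.9 and 17.2 FPKM in total RNA, 27.4 and 15.1 FPKM in the light and 46.1 and 22.4 FPKM in the heavy fraction. It was lower in WD in all 3 pairs, and 0.485 times the CD value in the heavy fraction.

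The 3 UGT genes Ugt2b15, Ugt2b35 and Ugt2a1 share 1 interval on chromosome 14 of Rnor_6.0 (22192970 to 22619968), so reads may have been split between them. The upper bound that the authors' software gave for a value was up to 2.72 times the value for Ugt2b15, 5.26 times for Ugt2b35 and 17.5 times for Ugt2a1. The levels of the last 2 are uncertain to that extent. Likewise, Gstm7, Gstm6, Gstm6l and Gstm3 share an interval on chromosome 2 (210720704 to 210782856) and Gsta1 and Gsta3 one on chromosome 9 (27368272 to 27452902). The upper bound was up to 17.3 times the value for Gstm6l and 10.7 times for Gsta3, but 1.97 times for Gstm7 and 1.82 times for Gsta1. Counting loci outside the 3 families, 13 of the 29 members shared an interval with another locus, Sult2a1, Ugt1a8, Ugt2b17 and Gstz1 among them. In all, 8 of the 29 members had an upper bound over 3 times the value in at least 1 library, and the share of all loci was not computed. Mgst2 (up to 3.30 times) and the Gsto1 and Gsto2 row (up to 4.78 times) were among these 8 although they shared no interval.

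The SULT family was led by Sult1a1, the main sulfotransferase for phenols, and Sult1b1, which acts on thyroid hormone and phenols. Sult1a1 had 336 and 310.5 FPKM in total RNA (CD and WD), 270.4 and 282 FPKM in the light and 597 and 553 FPKM in the heavy fraction. Sult1b1 had 299 and 345 FPKM in total RNA, 250.4 and 230.3 FPKM in the light and 154 and 155 FPKM in the heavy fraction. The WD to CD ratios of both genes lay between 0.920 and 1.15 in every pair of libraries, and they differed from each other in the gradient, where Sult1a1 was higher in the heavy and Sult1b1 higher in the light fraction of both diets.

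Sult2a1, which sulfates hydroxysteroids and bile acids, had 72.1 and 60.7 FPKM in total RNA, 73.7 and 113 FPKM in the light and 147 and 90.2 FPKM in the heavy fraction. Its heavy fraction was higher than its light fraction in CD and lower in WD. Sult1c3 showed the same turn on a larger scale, with 44.2 and 31.1 FPKM in total RNA, 22.3 and 137 FPKM in the light and 56.8 and 45.6 FPKM in the heavy fraction. Its light fraction was 6.13 times as high in WD as in CD, the largest WD to CD ratio in the light fraction among the 29 members. Sult2b1, which sulfates cholesterol, and Sult1c2a stayed at or under 2.65 FPKM in all libraries and were listed at 0 in the CD heavy fraction.

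Among the GST genes, Mgst1, a glutathione transferase and peroxidase of the endoplasmic reticulum and outer mitochondrial membrane, had 1838 and 2042 FPKM in total RNA, 1362 and 1345 FPKM in the light and 1387 and 1963 FPKM in the heavy fraction. The diets were near each other in total RNA and in the light fraction, and WD was 1.42 times CD in the heavy fraction. The other microsomal genes were lower. Mgst3 had 63.6 and 87.2 FPKM in total RNA, 138 and 33.9 FPKM in the light and 199.9 and 225 FPKM in the heavy fraction, so that the diets differed most in the light fraction, where WD was 0.246 times CD. Mgst2, which can form leukotriene C4, had 23.9 and 10.0 FPKM in total RNA, 7.00 and 19.3 FPKM in the light and 15.0 and 58.7 FPKM in the heavy fraction.

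The mu class was led by Gstm1, with 1209 and 1398 FPKM in total RNA, 549.5 and 332 FPKM in the light and 1425 and 2287 FPKM in the heavy fraction. WD was lower than CD in the light and higher in the heavy fraction. Gstm7 had the same directions, with 562 and 645 FPKM in total RNA, 312 and 239 FPKM in the light and 737 and 933 FPKM in the heavy fraction. Gstm4 went the other way in the gradient, with 10.2 and 9.47 FPKM in total RNA, 9.11 and 17.5 FPKM in the light and 18.7 and 12.2 FPKM in the heavy fraction. Summed over the 7 mu genes, the light fraction held 876 FPKM in CD and 592 FPKM in WD, and the heavy fraction 2185 and 3236 FPKM.

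The alpha class, which reduces lipid hydroperoxides, was led by Gsta1 and Gsta5. Gsta1 had 80.5 and 70.8 FPKM in total RNA, 73.6 and 89.9 FPKM in the light and 162 and 138 FPKM in the heavy fraction. Gsta5 had 69.2 and 85.5 FPKM in total RNA, 89.0 and 96.0 FPKM in the light and 61.0 and 66.0 FPKM in the heavy fraction, and lay higher in the light fraction in both diets. Gsta4, which acts on the peroxidation product hydroxynonenal, had 24.5 and 20.5 FPKM in total RNA, 12.0 and 49.5 FPKM in the light and 12.9 and 30.1 FPKM in the heavy fraction. Both gradient fractions of Gsta4 were higher in WD although total RNA was not. Gsta3 stayed between 1.27 and 5.95 FPKM.

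Of the theta class, which handles small halogenated compounds, Gstt2 had 36.3 and 54.3 FPKM in total RNA, 33.8 FPKM in the light fraction of both diets and 115 and 161 FPKM in the heavy fraction. Gstt3 had 7.73 and 18.5 FPKM in total RNA, 8.08 and 5.57 FPKM in the light and 8.67 and 22.9 FPKM in the heavy fraction. Gstt1 had 12.9 and 8.57 FPKM in total RNA, 13.7 and 15.0 FPKM in the light and 29.4 and 25.1 FPKM in the heavy fraction. Gstt2 and Gstt3 were thus higher in WD total RNA and heavy fraction, and Gstt1 lower in both.

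The other soluble classes had 1 compared member each. Gstz1, which isomerizes maleylacetoacetate in tyrosine breakdown, had 149 and 156 FPKM in total RNA, 135 and 173 FPKM in the light and 162 and 207 FPKM in the heavy fraction. Gstk1, found in mitochondria and peroxisomes, had 17.4 and 31.5 FPKM in total RNA, 8.47 and 26.5 FPKM in the light and 27.3 and 23.1 FPKM in the heavy fraction. Gstp1, which is low in hepatocytes of normal adult rat liver, had 27.7 and 11.3 FPKM in total RNA, 15.8 and 12.4 FPKM in the light and 43.6 and 30.7 FPKM in the heavy fraction, and WD was lower in all 3 pairs. The merged Gsto1 and Gsto2 row, whose products reduce dehydroascorbate, had 9.71 and 11.5 FPKM in total RNA, 7.07 and 27.4 FPKM in the light and 30.5 and 16.0 FPKM in the heavy fraction.

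The position of an mRNA between the fractions was read from the ratio of heavy to light FPKM, as log2 after adding 0.1 FPKM. Since the scaling between fractions is not absolute, it was set against all 10201 loci compared, whose median log2 ratio was 0.012 in CD and 0.00 in WD. In CD, 24 of the 29 members were above that median, with a median of 1.09. Of them, 18 had a ratio of at least 1.5, as had 32.9% of all loci, and 5 a ratio of at most 0.75, as had 36.6%. In WD, 20 of 29 lay above the median of all loci, with a median of 0.61, and 15 had a ratio of at least 1.5 (31.4% of all loci) and 7 of at most 0.75 (38.5%). In both diets together, 18 of 29 members were above the median of all loci, against 35.7% of the loci compared.

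By family, all 5 UGT genes were above the median of all loci in both diets, with a median log2 heavy to light ratio of 1.63 in CD and 1.55 in WD, and Ugt2b17 (2.41 and 2.25) was the highest UGT gene in each diet. GST genes had medians of 1.09 and 0.68, with 16 of 18 members above all loci in CD and 13 of 18 in WD. SULT genes had medians of 0.15 and -0.44, with 3 and 2 of 6 members above. The SULT median in CD rests on Sult2b1 and Sult1c2a, whose CD heavy fraction was listed at 0, and was 1.07 for members with a mean of at least 10 FPKM, near the GST value. Sult1b1 and Gsta5 were the abundant exceptions, with log2 ratios of -0.70 and -0.54 in CD and of -0.57 and -0.54 in WD. The sum over each family gave the same order in CD for UGT against the others, as UGT mRNA was 3.14 times as high in the heavy as in the light fraction, GST mRNA 1.60 times and SULT mRNA 1.54 times. In WD these ratios were 2.76, 2.46 and 1.10.

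**Figure D2:**
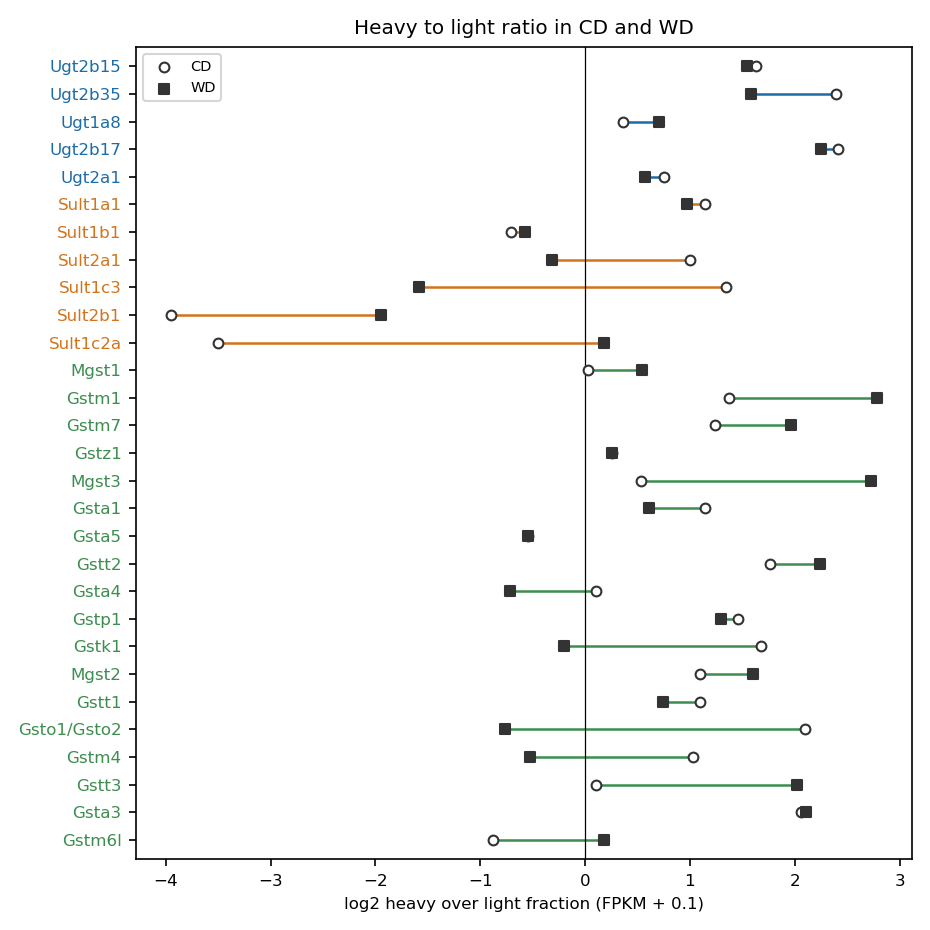
Log2 ratio of heavy to light fraction (FPKM + 0.1) of each of the 29 members in CD (circles) and WD (squares), each from 2 pooled libraries, with a line joining the diets. The UGT genes lie right of 0 in both diets, Gstm1 and Mgst3 lie further right in WD, and Sult1c3 and Gsto1/Gsto2 cross from right to left; the CD points of Sult2b1 and Sult1c2a rest on a heavy fraction listed at 0.

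In total RNA, the level of each conjugation mRNA was compared between the 1 pooled WD library and the 1 pooled CD library. Over the 29 members, 17 were higher and 12 lower in WD, with a median log2 ratio of 0.15 against 0.022 for all loci compared. Only 4 had a ratio of at least 1.5 (17.7% of all loci did) and 6 a ratio of at most 0.75 (22.7%), so the members' shares were near or below those of all loci. For GST genes, 12 of 18 were higher (median 0.20), for UGT genes 3 of 5 (median 0.049) and for SULT genes 2 of 6 (median -0.18). The summed level was 1.12 times CD for UGT, 1.13 times for GST and 0.993 times for SULT, the last of which turned to 1.06 times when the libraries were scaled to the same summed FPKM.

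The 4 members at or past 1.5 were Gstt3 (2.39 times), Gstm6l (2.09 times), Gsta3 (2.04 times) and Gstk1 (1.81 times). Just under the limit were Gstt2 (1.497 times, 0.58 on the log2 scale) and Ugt1a8 (1.46 times). The 6 at or under 0.75 were Gstp1 (0.407 times), Mgst2 (0.418 times), Sult2b1 (0.523 times), Gstt1 (0.665 times), Sult1c3 (0.703 times) and Ugt2b17 (0.744 times), and Ugt2a1 lay just above at 0.751 times. With a mean of at least 10 FPKM required, 2 members remained at or past 1.5 (Gstk1 and Gstt3) and 5 at or under 0.75, since Gstm6l, Gsta3 and Sult2b1 were below that level. These counts are out of 25 members. Of the 4069 loci at that level, 8.77% were at or past 1.5 and 16.2% at or under 0.75.

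The depth behind these ratios could be stated for part of the genes. For 12 of the 29 members, the deposited values could be traced back to whole fragment numbers, and an exact binomial (Clopper-Pearson) 95% interval of the WD to CD ratio was computed from those numbers. Such an interval covers counting error only, because reads copied by PCR and counted with no molecular identifier are not independent, and it compares 2 libraries, not 2 diets. The interval was above 1 for 1 of the 12 members, as for 3.55% of all loci with such numbers, below 1 for 0 of them (3.74% of all loci) and included 1 for 11. The member above 1 was Gstt3, on 14 (CD) and 32 (WD) fragments, with an interval of 1.24 to 4.85. The ratio of Gstk1 rested on 15 and 26 fragments (0.925 to 3.68), that of Gstp1 on 18 and 7 (0.144 to 1.02) and that of Mgst2 on 5 and 2 (0.0398 to 2.56).

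The deeper members were known more precisely and lay near 1. Sult1a1, with 393 fragments in CD and 347 in WD, had a ratio of 0.923 (0.797 to 1.07), and Sult1b1, with 367 and 405, a ratio of 1.15 (0.999 to 1.33). Gsta1 had a ratio of 0.879 (0.637 to 1.21) and Gsta5 of 1.24 (0.879 to 1.74). For Mgst1, Gstm1, Gstm7 and the UGT genes, no fragment numbers could be inferred, so their depth is unknown. The lower and upper bounds deposited with each value overlapped between CD and WD in total RNA for all 29 members, and bounds failed to overlap at 0.0392% of all loci. In the light fraction the bounds overlapped for all 29 as well (they failed to at 0.48% of all loci), as they did in the heavy fraction (0.0882%).

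**Figure D3:**
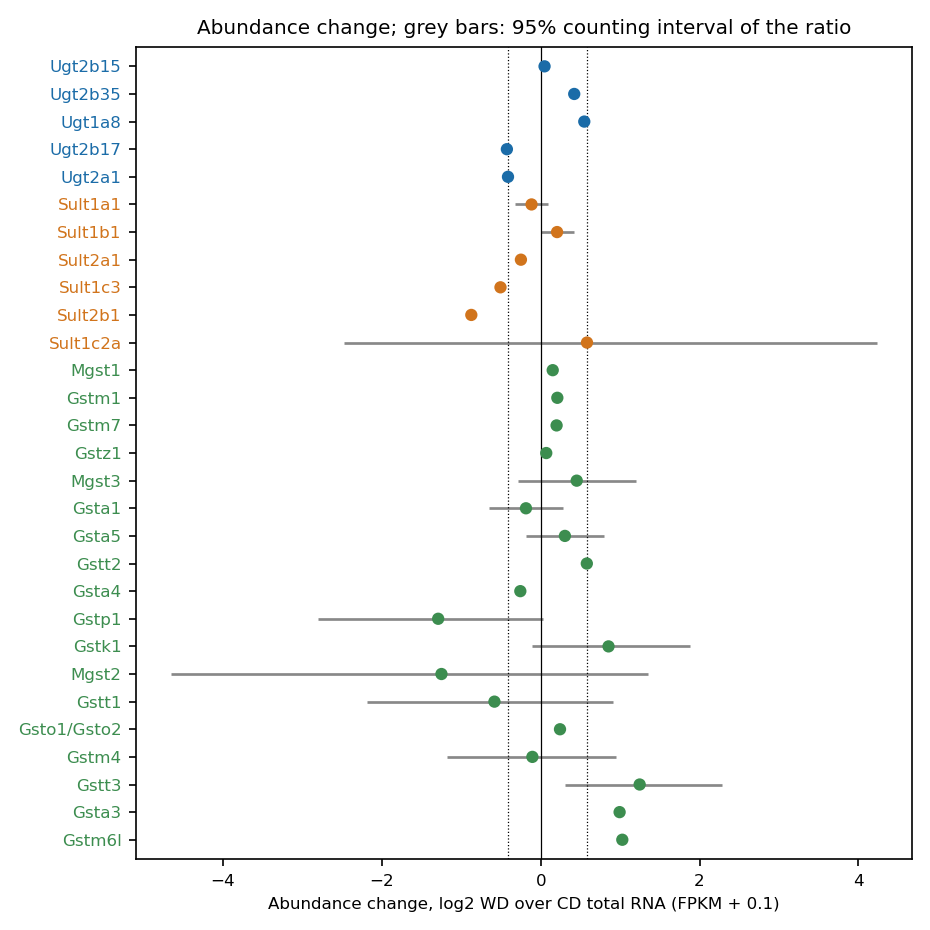
Abundance change, as log2 of WD over CD in total RNA (FPKM + 0.1), of each of the 29 members, 1 pooled library per diet. Grey bars are 95% counting intervals for the 12 members with inferred fragment numbers, and dotted lines mark ratios of 0.75 and 1.5. Gstt3 is the only member whose bar lies right of 0, and the bars of Sult1a1 and Sult1b1 are the narrowest.

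Ribosome density was the heavy to light ratio, and its change was the log2 ratio of that value in WD to that in CD. Over the 29 members, 14 were higher and 15 lower in WD, with a median of -0.0028 against -0.021 for all loci. A ratio of at least 1.5 was reached by 7 members, where 27.7% of all loci reached it, and one of at most 0.75 by 8 (36.1% of all loci). The median was -0.16 for UGT, -0.018 for SULT and 0.026 for GST, and with the libraries scaled to the same summed FPKM the UGT median was 0.16 and the SULT median 0.31. With a mean of at least 10 FPKM, which leaves out Sult2b1 and Sult1c2a, the SULT median was -0.74. Under that scaling all loci had a median of 0.28 and all members one of 0.33. A higher abundance went with a higher density in 12 members and a lower with a lower in 10, whereas 5 were higher in abundance and lower in density and 2 the reverse. The matching shares of all loci were not computed, so these counts have no background to be read against. In 18 of 29 members density differed more between the diets than abundance did, as at 68.8% of all loci.

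The members with a higher ribosome density in WD were led by Mgst3, at 4.57 times, and Gstt3, at 3.77 times. Gstm1 followed at 2.65 times, Gstm6l at 2.08 times and Gstm7 at 1.65 times, and the low Sult2b1 and Sult1c2a were at 0 in the CD heavy fraction, so no fold is given for them. Of the other microsomal genes, Mgst1 was at 1.43 times and Mgst2 at 1.42 times, both under the limit of 1.5, and the ratio of Mgst2 rested on 1 to 8 fragments per library (0.0206 to 34.4). The 8 members at or under 0.75 were Sult1c3 (0.131 times), Gsto1 and Gsto2 (0.138 times), Gstk1 (0.273 times), Gstm4 (0.341 times), Sult2a1 (0.401 times), Gsta4 (0.567 times), Ugt2b35 (0.570 times) and Gsta1 (0.694 times). Nearest to 1 were Gstz1 (0.998 times) and Gsta5 (1.00 times).

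Counting intervals of the density ratio were above 1 for 2 of the 12 members with fragment numbers (5.7% of all loci with such numbers), below 1 for 1 of them (4.46%) and included 1 for 9. For Mgst3 the light fraction held 43 fragments in CD and 23 in WD and the heavy fraction 58 and 67, which gave an interval of 2.37 to 8.94. For Gstt3 the light fraction held 10 and 15 and the heavy fraction 10 and 27 fragments (1.13 to 12.9). For Gstm4 these numbers were 11 and 46 and, in the heavy fraction, 21 and 14 (0.118 to 0.956). The interval of Gstk1, from 5 and 34 and from 15 and 13 fragments, was 0.0656 to 1.01. Fragment numbers in the WD light library are larger for the same FPKM because 1 fragment there stood for 0.673 times the FPKM of 1 fragment in CD total RNA, whereas in the CD light library it stood for 1.46 times.

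The WD light library also stood apart in globin mRNA, and that library enters every density ratio. Of the 5 blood markers compared, the globins Hba1, Hba2 and Hbb were higher in the WD than in the CD light fraction. Alas2 (19.7 FPKM in CD and 7.18 FPKM in WD) and Ptprc (2.87 and 2.11 FPKM) were lower. The summed FPKM of the blood markers was 101 in the CD light and 506 in the WD light fraction, against 56.8 and 31.9 in total RNA, with the globin Hbb at 13.9 and 242 FPKM in the light fractions. The part of this in the density changes was not tested. When total RNA replaced the light fraction as the denominator, the sign of the change differed in 13 of 29 members, and the share of all loci was not computed. Among those past the limits it turned for Mgst3 (-0.28 on the log2 scale), Sult1c3 (0.19), Gsta4 (1.48) and Gstm6l (-1.06), while Gstm1 (0.47) and Gstt3 (0.14) stayed higher and Sult2a1 (-0.46), Gstk1 (-1.09), Gstm4 (-0.51) and Gsto1 and Gsto2 (-1.17) stayed lower.

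Taking the fractions one by one, 18 of 29 members were higher in the WD light fraction, 10 of them at least 1.5 times (25.9% of all loci) and 5 at most 0.75 times (26.8%). With equal summed FPKM these counts were 13, 5 and 9, and the share of all loci at or under 0.75 was 44.1%. In the heavy fraction 15 of 29 were higher, 7 of them at least 1.5 times (21.7% of all loci) and 5 at most 0.75 times (25.8%). In sums, GST mRNA in the heavy fraction was 1.40 times as high in WD as in CD, UGT mRNA 0.923 times and SULT mRNA 0.886 times, and in the light fraction these ratios were 0.907, 1.05 and 1.24. The GST sum in the heavy fraction was led by Gstm1 and Mgst1.

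In 5 members the light and heavy fractions passed the limits in opposite directions, which 12.3% of all loci did. Gstm1 and Gstt3 were lower in the WD light fraction (0.605 and 0.690 times) and higher in the heavy fraction (1.60 and 2.64 times). Sult2a1, Gstm4 and the Gsto1 and Gsto2 row were higher in the light fraction (1.53, 1.92 and 3.87 times) and lower in the heavy fraction (0.612, 0.651 and 0.526 times). In Mgst2 and Gsta4 both fractions were higher in WD, by 2.76 and 3.91 times and by 4.14 and 2.34 times, and in Ugt2a1 both were lower.

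**Figure D4:**
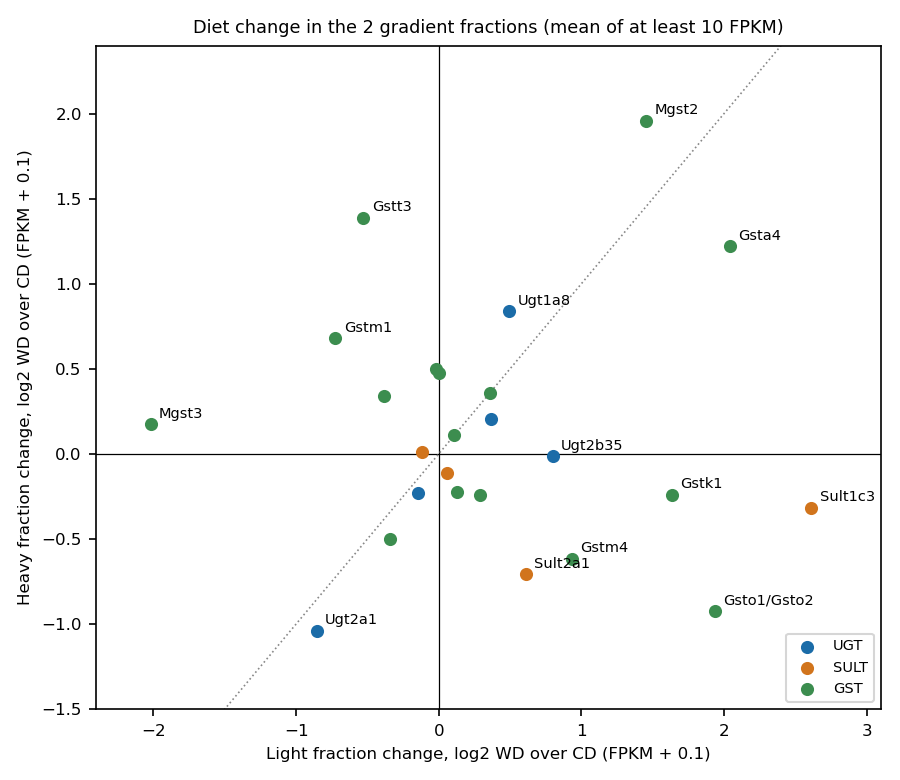
Log2 ratio of WD to CD (FPKM + 0.1) in the light fraction (horizontal) and the heavy fraction (vertical) of the 25 members with a mean of at least 10 FPKM, 1 point per gene and 1 pooled library per fraction and diet. On the dotted line both fractions changed alike; Gstm1, Gstt3 and Mgst3 lie at the upper left, and Sult2a1, Gstm4, Gstk1, Gsto1/Gsto2 and Sult1c3 at the lower right.

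The genes that supply UDP-glucuronic acid were all measured, and 6 of 8 were higher in WD total RNA. Ugdh, which makes UDP-glucuronic acid, had 77.6 FPKM in CD and 102 FPKM in WD, on 188 and 237 fragments, with a counting interval of the ratio of 1.08 to 1.60. Its heavy to light ratio was also higher, with an interval of 1.33 to 2.60, but its heavy to total ratio differed by only 0.0035 on the log2 scale. Slc35d1, which carries UDP-glucuronic acid into the endoplasmic reticulum, had 21.6 and 10.7 FPKM (91 and 43 fragments, 0.335 to 0.718). It was the 1 gene of the list at or under 0.75, and none was at or past 1.5. Of all loci, 22.7% and 17.7% were past these limits, to be read beside the counts of this and the following lists. Ugp2, which makes UDP-glucose, had 132 and 176 FPKM.

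Of the genes that supply PAPS and sulfate, 6 of 9 found were compared, and 3 were higher and 3 lower in WD total RNA. Papss2, the liver PAPS synthase, had 36.7 and 43.1 FPKM, and the sulfate carrier Slc26a1 82.2 and 77.9 FPKM (330 and 299 fragments, 0.807 to 1.11). Slc35b2, a PAPS carrier of the Golgi, was the 1 gene at or past 1.5, on 1 and 7 fragments (0.940 to 330). The 2 genes at or under 0.75 were Bpnt1, with 8.57 and 3.69 FPKM, and Papss1, with 2.54 and 1.59 FPKM.

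In glutathione supply and breakdown, 7 of 11 compared genes were higher, 1 of them at or past 1.5 and 2 at or under 0.75. Gclc, the catalytic subunit of the rate-limiting enzyme of glutathione synthesis, had 75.6 and 93.5 FPKM (246 and 291 fragments, 1.04 to 1.47). Its modifier subunit Gclm stayed at 41.5 and 41.3 FPKM in total RNA, but had 26.9 and 64.6 FPKM in the light fraction, and the interval of its density ratio was 0.263 to 0.868. Against total RNA the sign of that change turned (0.21 on the log2 scale). Acy3, an acylase for mercapturates, had 31.0 and 10.5 FPKM (40 and 13 fragments, 0.167 to 0.649), the lowest ratio of the list.

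Export and deconjugation genes were lower in 6 of 10 cases, with 1 at or past 1.5 and 3 at or under 0.75. Abcc2 had 182 and 160.1 FPKM (1147 and 967 fragments, 0.808 to 0.961). The lowest ratio was that of Abcg2, another canalicular pump, with 10.2 and 3.24 FPKM. Gusb, which removes glucuronic acid, had 8.46 and 3.70 FPKM, and Sts, which removes sulfate from steroids, 19.5 and 12.3 FPKM (0.394 to 0.997). Of the other conjugating enzymes the most abundant was Baat, which joins bile acids to glycine or taurine, at 194 and 205 FPKM in total RNA. Its light fraction was 80.9 FPKM in CD and 180.2 FPKM in WD, and its density interval was 0.374 to 0.610, whereas its heavy to total ratio differed by 0.016 on the log2 scale. Of that list, 9 of 15 were higher in total RNA, 2 at least 1.5 times and 2 at most 0.75 times.

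Of 15 regulators, 9 were higher in WD total RNA, 2 of them at least 1.5 times and 3 at most 0.75 times. Nr1i2 had 32.0 and 23.1 FPKM (78 and 54 fragments, 0.502 to 1.04), Nr1i3 29.7 and 34.1 FPKM and Nfe2l2 31.6 and 34.3 FPKM (76 and 79 fragments, 0.783 to 1.51). The highest ratios were those of Bach1, a repressor of NRF2 targets, with 7.50 and 13.6 FPKM (26 and 45 fragments, 1.09 to 3.06), and of Ahr, the aryl hydrocarbon receptor, with 10.3 and 15.7 FPKM (58 and 85 fragments, 1.08 to 2.18). Of 10 compared NRF2 target genes outside the 3 families, 7 were higher and 3 lower, with a median log2 ratio of 0.32, 3 at least 1.5 times and 2 at most 0.75 times. Ephx1, an epoxide hydrolase, had 86.1 and 153 FPKM and Akr7a3, an aldo-keto reductase, 12.4 and 25.9 FPKM (15 and 30 fragments, 1.09 to 4.18). The highest ratio was that of Hmox1, with 3.20 and 7.37 FPKM on 5 and 11 fragments (0.737 to 8.44). The 2 genes at most 0.75 times were Me1, with 69.8 and 41.6 FPKM, and Nqo1, a quinone reductase. Nqo1 had 2.54 and 0.664 FPKM on 4 and 1 fragments, the lowest ratio of the list.

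The tissue label was checked against markers. All 8 hepatocyte markers were measured, with a sum of 69318 FPKM in CD and 62732 FPKM in WD total RNA, and 3 were higher and 5 lower in WD. Kupffer cell markers were higher in WD total RNA in 8 of 8 cases (summed 89.3 and 122.8 FPKM), endothelial markers in 5 of 5 (127 and 164 FPKM) and stellate cell markers in 5 of 6 (111 and 232 FPKM). Most of the stellate sum lay in a row that merges Col3a1 with another symbol (68.6 and 180.3 FPKM), without which it was 42.2 and 51.8 FPKM. Of all loci compared, 5214 of 10201 were higher. Vsig4 (8 and 8 fragments), Stab2 (60 and 60) and Des (3 and 3) counted as higher on equal fragment numbers. In WD total RNA 1 fragment stood for 1.05 times the FPKM of 1 in CD. Where intervals could be computed, those of Kupffer cell and endothelial markers included 1, and that of the stellate marker Dcn was 1.11 to 49.1. Cholangiocyte markers summed to 2.17 and 8.99 FPKM, with Krt7, Spp1 and Cftr listed at 0 in all libraries. These values moved with diet alongside the total RNA differences above, and their part in them was not tested.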

How the data were processed

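RNA of liver total RNA and of light and heavy sucrose gradient fractions was pooled from 3 rats per diet and sequenced after removal of ribosomal RNA. The authors mapped the reads with TopHat to the assembly Rnor_6.0 and deposited FPKM values from the Cufflinks pipeline, scaled between libraries with Cuffnorm, with a lower and an upper bound for each value. The submitters' processing notes also name bcl2fastq. The annotation is not given in the sources used here, nor is it certain whether reads of the gradient fractions took the separate alignment route that the methods describe for ribosome profiling. The locus of 1 gene, Apob, marked as failed, was left out.

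Loci that had a symbol and averaged at least 1 FPKM were compared on the scale of log2(FPKM + 0.1), which understates the change of low genes. Limits of at least 1.5 and at most 0.75, which the methods state for the CD to WD ratio of ribosome density, were applied here to WD to CD ratios. With 1 library per diet and fraction no test was run. Fragment numbers were inferred where a factor for each library and a step for each locus turned all values into whole numbers within a relative tolerance of 3e-05, and were kept where the deposited upper bounds, which depend on that number, were within 10% of those of other loci with it. Numbers were given to 8370 of 12459 loci (67.2%), and to 6706 of the loci compared; a shared divisor cannot be detected, and the step was tested on simulated data. In these loci the libraries held 199009 (CD light) to 424020 (WD light) fragments, with a median per locus of 9 to 24. Confidence intervals (95%) used the exact binomial distribution (abundance) or the conditional odds ratio (ribosome density). Loci with a symbol summed to 616030 to 866676 FPKM per library.

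The genes, their lists and the limits were chosen with earlier results of these data known. Named members are the 6 most abundant of each family, the 3 highest and 3 lowest changes, those whose counting interval leaves out 1, those past a limit at a mean of at least 10 FPKM, and those on merged or shared loci. The remaining members were named so that all 29 are accounted for. In the other lists, genes were named for the highest or lowest level or change or as rate-limiting enzymes and main carriers. Alternatives were pseudocounts of 1 and 0.01 FPKM, means of at least 0.1 and 10 FPKM and no filter, libraries scaled to the same summed FPKM, changes centred on the median of all loci, unmerged loci only, the heavy fraction over total RNA, and, for levels, a sum without the 10 most abundant loci and the median of members. Figures were drawn with matplotlib 3.10.9, and values were computed with scipy 1.17.1, numpy 2.4.6 and pandas 2.3.3 in Python 3.11.15. Promoters and symbols came from RefSeq on GRCr8.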

Additional observations from a re-analysis of the deposited data

Results flagged for a closer look

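In 5 members the light and heavy fractions differed between diets in opposite directions past the limits of 1.5 and 0.75, so that the ribosome density change was large. On the log2 scale this change was 1.41 for Gstm1, 1.92 for Gstt3, -1.32 for Sult2a1, -1.55 for Gstm4 and -2.86 for the merged Gsto1 and Gsto2 row. Each fraction and diet is 1 pooled library, so the difference between the fractions was not tested, and 12.3% of all loci compared met the same criterion. Counting intervals of the density ratio left out 1 for Gstt3 (1.13 to 12.9) and Gstm4 (0.118 to 0.956), and fragment numbers were not inferred for the other 3 members.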

How the results depend on the processing

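No paired analysis was possible because each group is 1 pooled library, and no library could be left out for the same reason. The number of members at least 1.5 times as high in WD was 4 for abundance and 7 for ribosome density. It was 7 and 11 with each library scaled to the same summed FPKM, and 2 and 4 with a mean of at least 10 FPKM required, where fewer genes are compared. For abundance, the share of all loci at least 1.5 times as high was 17.7%, against 20.5% under that scaling and 8.77% at that mean. For ribosome density at that mean it was 23.3%. The same scaling turned the median change of all members in the light fraction from 0.13 to -0.22 on the log2 scale and shifted all loci as well, whose median was 0.12 in place of 0.022 for abundance, -0.29 in place of 0.017 for the light fraction and 0.28 in place of -0.021 for ribosome density. The share of all loci with a density ratio of at least 1.5 then went from 27.7% to 38.0% and that of at most 0.75 from 36.1% to 27.2%, and for the light fraction from 25.9% to 17.4% and from 26.8% to 44.1%. The SULT median at a mean of at least 10 FPKM, which leaves out 2 genes listed at 0 in the CD heavy fraction, was -0.74 in place of -0.018 for ribosome density and 1.07 in place of 0.15 for the heavy to light ratio in CD. Taken as heavy fraction over total RNA, the sign of the density change differed in 13 of 29 members, with no share of all loci computed. Among them were, of those past a limit, Sult1c3 (0.19), Mgst3 (-0.28), Gsta4 (1.48) and Gstm6l (-1.06). Without the 10 most abundant loci in the denominator, the shares of CD and WD total RNA were 0.322% and 0.378% for UGT, 0.179% and 0.187% for SULT and 0.985% and 1.16% for GST, since the denominator is smaller. For the main results (family medians, main counts over all members, and levels), the other 232 alternative values stayed near the first value. Counts and levels stayed within 1.5 times, and medians within a 95% rank interval and 1.5 times. Some of these small medians changed sign. Among them were, under equal summed FPKM, the density medians of UGT (0.16) and SULT (0.31) and the light median of GST (-0.30). Values outside the main results, such as counts within a family, were less steady. Of their alternatives, 615 stayed so, 196 moved further and 4 reversed. For example, 1 UGT member had a higher density in WD, but 4 had under equal summed FPKM. As to depth, abundance intervals spanned more than 3 times from end to end in every member with fewer fragments in CD total RNA than Mgst3 (29).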

Other observations

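Conjugation genes outside the 3 families also differed in their place in the gradient. Of Glyatl1 and Glyat, which join acyl groups to amino acids, Glyatl1 was higher in the heavy and Glyat in the light fraction of both diets. Glyatl1 had 38.4 and 26.1 FPKM in the light and 340.2 and 424 FPKM in the heavy fraction, whereas Glyat had 179 and 143 FPKM in the light and 78.7 and 50.7 FPKM in the heavy fraction.

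Gpx1, a cytosolic glutathione peroxidase and the most abundant gene of the glutathione list, had 1093 and 1224 FPKM in total RNA. This rested on 843 and 903 fragments, with a counting interval of the WD to CD ratio of 1.02 to 1.23. Unlike most GST genes it was higher in the light fraction, with 2139 and 2236 FPKM against 755 and 747 FPKM in the heavy fraction. Gpx4, another glutathione peroxidase of the list, was lower in WD total RNA, with 488 and 407 FPKM (378 and 301 fragments, 0.713 to 0.971). Ephx2, a soluble epoxide hydrolase, had 106 and 82.7 FPKM in total RNA (233 and 174 fragments, 0.638 to 0.954), opposite in direction to the microsomal Ephx1. Glyat, Glyatl1, Gpx4 and Ephx2 were chosen after their values were seen.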
